A study of Homo sapiens with 9 samples.

Results

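The 86 genes described here encode the proteins of the cytosolic ribosome, and they were picked by symbol from the 28216 genes of the deposited count table. Symbols made of RPL or RPS, a number and an optional A, X or L ending were kept, and RPSA, RPLP0, RPLP1, RPLP2 and FAU were added by name. Genes of the ribosomal S6 kinases, pseudogenes and copies on the Y chromosome were left out. The set held 43 core proteins of the large subunit, 3 proteins of the acidic stalk, 32 core proteins of the small subunit and 8 paralogs, which are close copies of a core gene at another place in the genome.

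The libraries came from PC3 and LNCaP (clone FCG), a pair of established prostate cancer lines labelled epithelial and WT, with 3 libraries per group. PC3, grown from a bone metastasis, does not respond to androgen, and these cells were untreated in F12K medium with serum. LNCaP, grown from a lymph node metastasis, responds to androgen, and both of its groups were kept in phenol red-free RPMI medium with charcoal-stripped serum before and during treatment. LNCaP cells then received 10 nM androgen, named DHT in the sample labels and R1881 in the paper, or vehicle (0.01% ethanol) for 48 h. Each line stands for the tumour of 1 patient, and the lines also differed in medium and serum, so that line, medium and serum cannot be told apart. The study's methods name an experimental batch for these libraries, but the labels do not tie the 3 libraries of a group to separate cultures, so the p-values measure the spread between these libraries, which may be technical.

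Ribosomes translate messenger RNA into protein. The small subunit reads the codons, the large subunit joins the amino acids, and the acidic stalk on the large subunit binds the GTPases that drive each step. A ribosome needs its proteins in matched amounts, and most of their messenger RNAs start with a terminal oligopyrimidine (TOP) tract, a C followed by an unbroken run of C or T, through which mTOR and the RNA-binding protein LARP1 set their translation. Cancer cells, prostate cancer cells included, are known to depend on high ribosome output.

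Gene counts summed to 17397706 at the lowest and 25640325 at the highest library. Levels are given as CPM, counts scaled to a common library total with TMM factors, and 3 counts, the limit that a count of 0 allows, equalled 0.117 to 0.172 CPM before those factors. Such limits and the counting intervals given here cover counting error only. The summed level of 7 LNCaP markers was 511 to 872 CPM in PC3 libraries, 10444 to 11248 CPM in androgen-treated and 3556 to 4033 CPM in vehicle-treated LNCaP libraries. KLK2, a kallikrein made by luminal prostate cells, had no read in any PC3 library. The summed level of 6 PC3 markers was 2794 to 2908 CPM in PC3 and at most 24.9 CPM in LNCaP libraries, so the labelled lines were told apart by these sums. Taken singly in the test used below, 6 of the 7 LNCaP markers were lower in PC3 than with androgen and 1 was higher (log2 fold change 0.49). Against vehicle 6 were lower and 1 was not called. The summed level of 5 blood and stroma markers was 36.9 to 43.8 CPM in PC3, 11.9 to 15.3 CPM with androgen and 20.7 to 23.9 CPM with vehicle, where 2, 4 and 2 of the 5 had no count, and COL1A1 alone passed the filter on low counts. The groups also differed in reads that STAR placed at several sites and did not count, at 7.18% to 7.43% of reads in PC3, 8.30% to 8.76% in androgen-treated and 9.08% to 9.36% in vehicle-treated LNCaP libraries. The part of these differences in the results was not tested.

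Ribosomal protein genes took up a smaller share of the transcriptome in PC3 cells than in LNCaP cells, and within LNCaP a smaller share with androgen than with vehicle. The 86 genes held 5.05%, 4.72% and 5.52% of all gene counts in the PC3 libraries, 7.35%, 7.22% and 7.06% in the androgen-treated and 8.96%, 9.03% and 8.73% in the vehicle-treated LNCaP libraries. The 3 groups did not overlap. The mean share was 5.10% ± 0.402 (SD, n = 3) in PC3, 7.21% ± 0.145 with androgen and 8.91% ± 0.155 with vehicle. Each of the 3 pairs of groups gave p = 0.1 in a two-sided exact permutation test, which is the smallest p that 3 against 3 libraries allow, and an adjusted p of 0.1. In bulk RNA, less ribosomal protein RNA per cell and more RNA of other genes cannot be told apart.

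**Figure D1:**
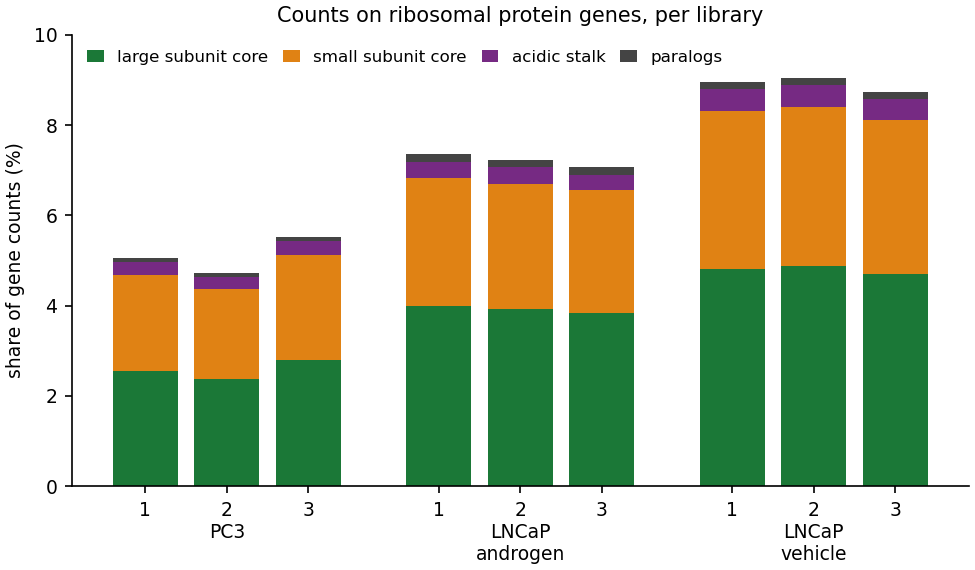
Share of all gene counts (%, y axis) on ribosomal protein genes in each of the 9 libraries (x axis, replicate number and group), stacked by class. The bars reach 4.72% to 5.52% in PC3, 7.06% to 7.35% in androgen-treated and 8.73% to 9.03% in vehicle-treated LNCaP cells.

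The decline ran through the core classes, whereas the summed share of the paralogs followed another order. Large subunit core genes held 2.58% ± 0.214 of the counts in PC3, 3.93% ± 0.0768 with androgen and 4.80% ± 0.0835 with vehicle (SD, n = 3). Small subunit core genes held 2.14% ± 0.171, 2.77% ± 0.0580 and 3.48% ± 0.0609 in the same order. The acidic stalk held 0.299% ± 0.0196, 0.354% ± 0.0113 and 0.482% ± 0.0114. The 8 paralogs together held 0.0834% ± 0.00181 in PC3, 0.166% ± 0.00213 with androgen and 0.151% ± 0.00277 with vehicle, so that their summed share was highest in androgen-treated cells. Much of this sum in LNCaP was RPL22L1, which had 1222, 1098 and 1060 counts in PC3. It had 20331, 18240 and 18232 counts with androgen and 13332, 12478 and 13463 with vehicle. The order of the sum is therefore not that of each paralog.

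The start of the transcript is the feature these genes are best known to share, and it is shown for a selection of the genes named below. RefSeq windows around listed transcription starts (GRCh38.p14) were available for 69 of the 86 genes. A start was taken as pyrimidine-rich where its first base was C and the next 4 bases were each C or T, read on the strand of the gene. By this rule 48 of the 69 genes (69.6%) had at least 1 such start, as compared to 1057 of 18244 genes of the whole table (5.79%). The start was found for 25 of 35 large subunit core genes, 19 of 25 small subunit core genes, 3 of 3 stalk genes and 1 of 6 paralogs, RPL22L1. In the windows below, 10 bases precede the start and 20 follow from it. Capitals mark the unbroken run of C and T that begins at the start. A window without capitals did not meet this rule at its listed start, though C and T may lie close by. A match describes these letters and no measured property of the RNA.
Core genes with the run, at different levels in the lines or with androgen:
RPL7A (chr9:133348208-133348237, plus strand): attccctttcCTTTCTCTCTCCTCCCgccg
RPS24 (chr10:78033853-78033882, plus strand): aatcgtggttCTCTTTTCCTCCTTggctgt
RPL22 (chr1:6199576-6199605, minus strand): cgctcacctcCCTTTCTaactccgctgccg
RPS19 (chr19:41860245-41860274, plus strand): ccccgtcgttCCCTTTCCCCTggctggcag
RPLP0 (chr12:120201092-120201121, minus strand): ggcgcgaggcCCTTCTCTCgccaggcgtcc
RPL35A (chr3:197950180-197950209, plus strand): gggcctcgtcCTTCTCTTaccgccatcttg
RPL38 (chr17:74203668-74203697, plus strand): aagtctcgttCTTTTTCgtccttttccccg
Paralogs, of which RPL22L1 carries the run:
RPL22L1 (chr3:170870176-170870205, minus strand): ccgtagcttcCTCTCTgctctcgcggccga
RPL10L (chr14:46651762-46651791, minus strand): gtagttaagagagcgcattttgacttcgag
RPS27L (chr15:63157458-63157487, minus strand): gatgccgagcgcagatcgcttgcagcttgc
RPL36AL (chr14:49620607-49620636, minus strand): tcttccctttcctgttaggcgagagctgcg
Among the core genes shown, which were all picked with the run, RPL7A had the longest. RPS24, which was higher in PC3 cells, also started with a long one. Of the core genes not shown, RPS29, also higher in PC3, had a listed start without the run. RPL39, lower in PC3, had a run of 19 bases. RPS19 had another listed start without the run. The window of RPL36AL has C and T on both sides of its listed start, but too few from the start onward to meet the rule.

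PC3 cells and androgen-treated LNCaP cells were compared first, to ask how the androgen-insensitive line differs from the androgen-stimulated one. PC3 cells held less RNA of most ribosomal proteins, with RPL7A, RPL23 and RPL34 close to 4-fold lower, whereas RPS24, RPS29, RPL30 and RPL22 were 1.71 to 2.00 times higher. Among the 84 genes that passed the filter of more than 3 CPM in at least 3 libraries, 60 were called lower and 12 higher with edgeR's quasi-likelihood test (Benjamini-Hochberg adjusted p under 0.05), and 12 were not called. Of all 12541 genes tested, 41.1% were called lower and 42.9% higher. With a fold change of at least 2 in addition, 30 were lower and 2 higher, against 22.1% and 24% of all genes. The median log2 fold change of the 84 genes was -0.68, with an interquartile range from -1.22 to -0.14, and that of all genes tested was 0.04. Without PC3 replicate 3 the members' median was -0.79, and without androgen replicate 3 the number of genes called higher was 7 in place of 12.

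The PC3 libraries were less alike than the LNCaP libraries for these genes. The coefficient of variation between the 3 libraries had a median over the 84 genes of 9.76% in PC3, 2.19% in androgen-treated and 2.33% in vehicle-treated LNCaP cells. Within PC3, replicate 3 was the highest library for 75 of the 84 genes and replicate 2 the lowest for 75. Across all 9 libraries the median level of the genes, relative to each gene's mean, was -0.52, -0.65 and -0.35 in PC3, 0.20, 0.18 and 0.15 with androgen and 0.35, 0.34 and 0.28 with vehicle on the log2 scale. The spread within PC3 was thus smaller than the distance to either LNCaP group.

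**Figure D2:**
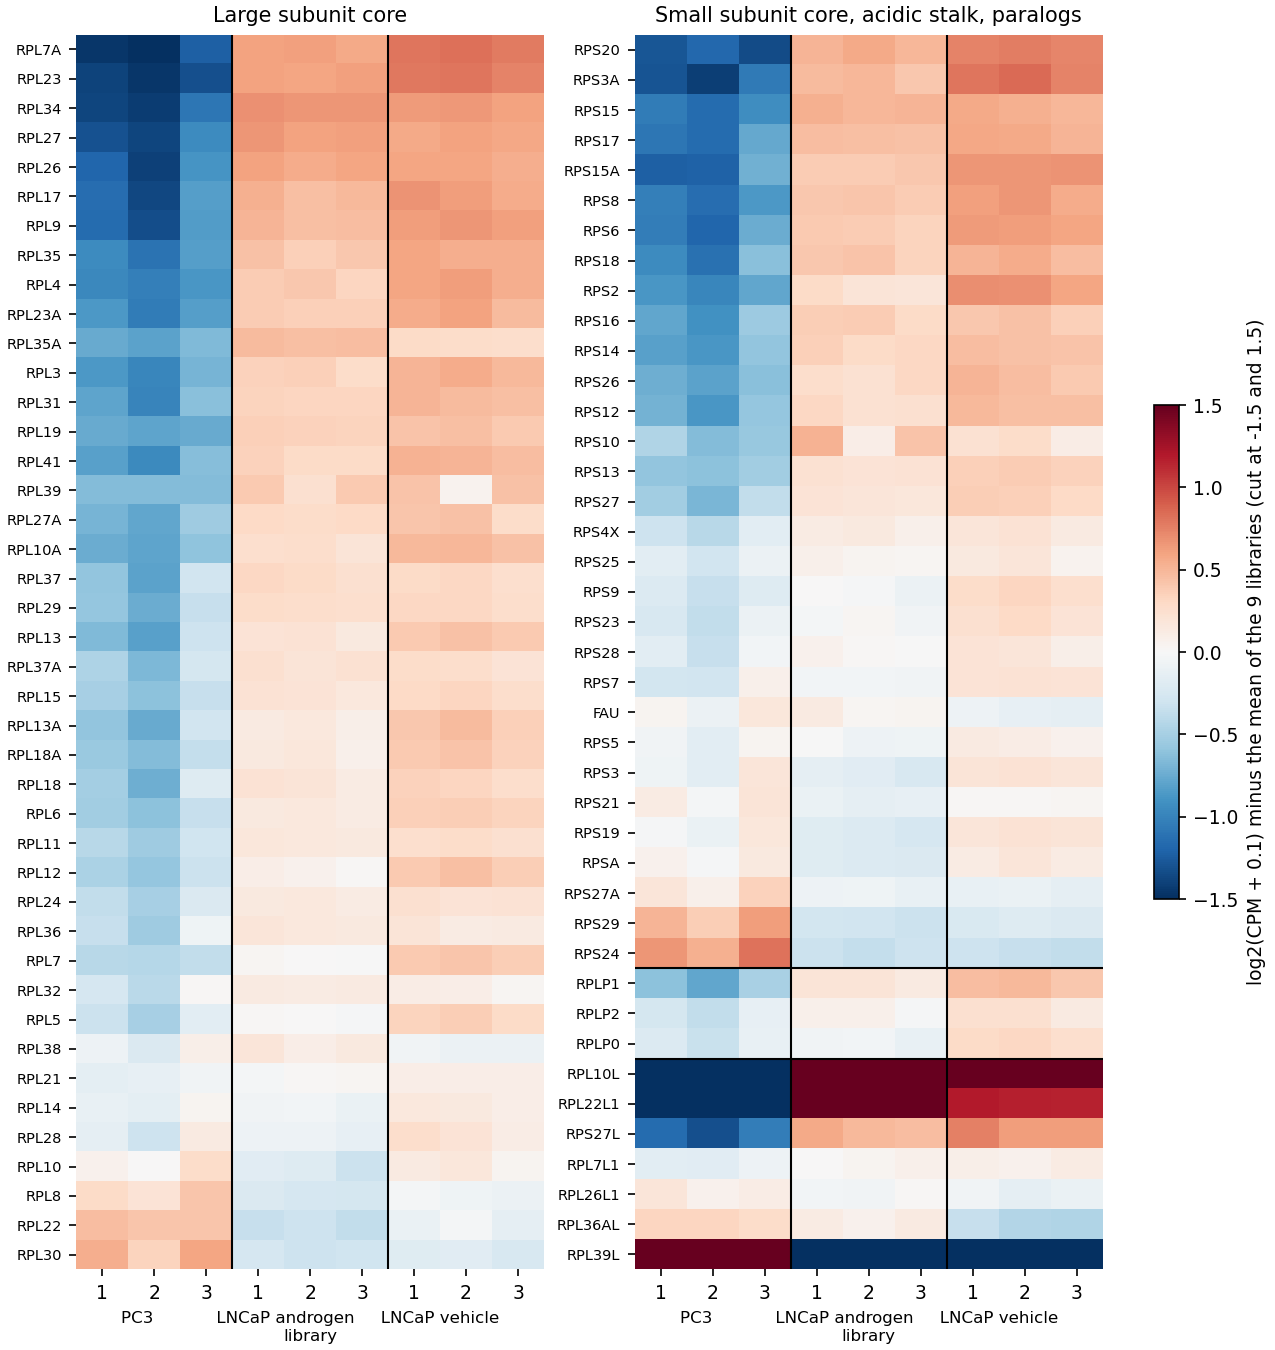
Level of 83 of the 84 genes tested (rows, by class and by their difference between PC3 and androgen-treated LNCaP) in each of the 9 libraries (columns), as log2(CPM + 0.1) minus the mean of the gene over the libraries, with blue below and red above that mean and colours cut at -1.5 and 1.5. Most rows are blue in the 3 PC3 columns, RPS24, RPS29, RPL30 and RPL22 are red there, and the paralogs RPL10L, RPL22L1 and RPL39L reach the ends of the scale.

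Large subunit core genes were lower in PC3 cells in 34 cases of 42 tested and higher in 4, with a median log2 fold change of -0.72. RPL7A was at 426, 410.4 and 501 CPM in PC3, 1788, 1799 and 1747 CPM with androgen and 2049.8, 2089 and 2013 CPM with vehicle. RPL23, which lies at the interface of the subunits, was at 382, 366 and 403 CPM in PC3 and at 1526, 1516 and 1541 CPM with androgen. RPL34 was at 171, 165 and 209 CPM in PC3 and at 714, 706 and 703 CPM with androgen. For all 3 genes, every PC3 library lay far below every LNCaP library. The log2 fold changes were -1.99 ± 0.093 (SE, edgeR adjusted p = 3.86e-07) for RPL7A, -1.99 ± 0.071 (adjusted p = 1.2e-07) for RPL23 and -1.96 ± 0.095 (adjusted p = 4.9e-07) for RPL34.

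RPL5 and RPL11, which form a particle with 5S ribosomal RNA that can bind MDM2 and so stabilise p53, were lower in PC3 by smaller amounts. RPL5 was at 606, 537 and 677 CPM in PC3 and 767, 761 and 750.5 CPM with androgen (log2 fold change -0.32, edgeR adjusted p = 0.00977). RPL11 was at 502, 463 and 545 CPM and 753, 750.3 and 745 CPM (log2 fold change -0.57, adjusted p = 0.000153). Neither gene overlapped between the groups. RPL41, whose product is the smallest ribosomal protein, was at 378, 343 and 428 CPM in PC3 and 843, 813 and 811 CPM with androgen, a log2 fold change of -1.10 (adjusted p = 8.32e-06).

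The 4 large subunit genes that were higher in PC3 were RPL30, RPL22, RPL8 and RPL10. RPL30 was at 1435, 1239.7 and 1480.3 CPM in PC3 and 830.5, 793 and 799 CPM with androgen (log2 fold change 0.78 ± 0.087, edgeR adjusted p = 5.91e-05). RPL8, a protein near the peptidyl transferase centre, was at 2388, 2247 and 2596 CPM and 1681, 1644 and 1625 CPM (log2 fold change 0.55, adjusted p = 0.000417). RPL10, which is added late in the maturation of the large subunit, was at 887, 851 and 1020.5 CPM and 749, 742 and 678 CPM (log2 fold change 0.35, adjusted p = 0.00784). In each of the 3 genes the PC3 libraries lay above the androgen-treated ones. RPL38 was not called (-0.20, adjusted p = 0.0604) and was called lower without PC3 replicate 3 (adjusted p = 0.00293).

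Among the 32 small subunit core genes, 20 were lower in PC3 cells and 6 higher, with a median log2 fold change of -0.55. RPS3A was at 197, 181 and 231 CPM in PC3 and 673, 680.2 and 638 CPM with androgen (log2 fold change -1.71, edgeR adjusted p = 1.03e-06). RPS2, which lines the entry channel of the messenger RNA, was at 960.1, 893 and 1029 CPM and 2145, 2014 and 1992 CPM (log2 fold change -1.09, adjusted p = 7.37e-06). RPS18 was at 727, 641 and 901 CPM and 1850.0, 1872 and 1763 CPM (log2 fold change -1.27, adjusted p = 2.43e-05). PC3 and androgen-treated libraries did not overlap in any of the 3 genes. RPS12 (log2 fold change -0.98, adjusted p = 1.42e-05) and RPS4X, an X-linked gene (-0.41, adjusted p = 0.00209), were lower as well.

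RPS24 was the most abundant ribosomal protein RNA of PC3 cells by CPM, and it was higher there than in LNCaP cells. It was at 3277, 2983 and 3640.4 CPM in PC3, 1656, 1614 and 1672 CPM with androgen and 1667, 1623 and 1603 CPM with vehicle. The log2 fold change against androgen-treated cells was 1.00 ± 0.094 (edgeR adjusted p = 2.04e-05), right at the 2-fold threshold. RPS29, a zinc-binding protein of the head of the subunit, was at 718, 649 and 775 CPM in PC3 and 415, 411 and 404 CPM with androgen (log2 fold change 0.80, adjusted p = 2.55e-05). Neither gene overlapped between the lines.

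RPS27A, which is made as a fusion with ubiquitin, RPSA, which is also known as a laminin receptor, RPS19, which is often mutated in Diamond-Blackfan anaemia, and RPS21 were higher in PC3 by at most 0.29 on the log2 scale. RPS27A was at 879, 818 and 991 CPM in PC3 and 736, 740.3 and 721 CPM with androgen (edgeR adjusted p = 0.0112). RPSA was at 1079, 1022 and 1143 CPM and 910.3, 896 and 890.2 CPM (adjusted p = 0.0089). RPS19 (log2 fold change 0.24, adjusted p = 0.022) and RPS21 (0.22, adjusted p = 0.0245) did not overlap between these groups either. Without androgen replicate 3 the adjusted p was 0.0583 for RPS27A, 0.0537 for RPSA and 0.102 for RPS19, and without androgen replicate 2 that of RPS19 was 0.0774. The call of RPS21 was lost without androgen replicate 2, androgen replicate 3 or PC3 replicate 1. FAU, the ubiquitin-like fusion that carries RPS30, was at 386, 354 and 423 CPM in PC3 and 412, 385 and 386 CPM with androgen, the groups overlapped, and the call was not made (log2 fold change -0.02, adjusted p = 0.791). RPS3 (0.17, adjusted p = 0.137) was not called either, and its libraries overlapped too. Without PC3 replicate 2, RPS3 was called higher (adjusted p = 0.0445).

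Of the acidic stalk, RPLP1 and RPLP2, the paired proteins at the tip, were lower in PC3, and RPLP0, their base, was not called. RPLP1 was at 618, 550.0 and 672 CPM in PC3 and 1085, 1077 and 1040.5 CPM with androgen (log2 fold change -0.80, edgeR adjusted p = 4.8e-05). RPLP2 was at 533, 497 and 587 CPM and 674, 676 and 631 CPM (log2 fold change -0.29, adjusted p = 0.00981). RPLP0 was at 1844, 1677 and 1963 CPM and 2045, 2059 and 1963 CPM, and these groups overlapped (log2 fold change -0.14, adjusted p = 0.149). Without PC3 replicate 3, RPLP0 was called lower too (adjusted p = 0.0196).

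**Figure D3:**
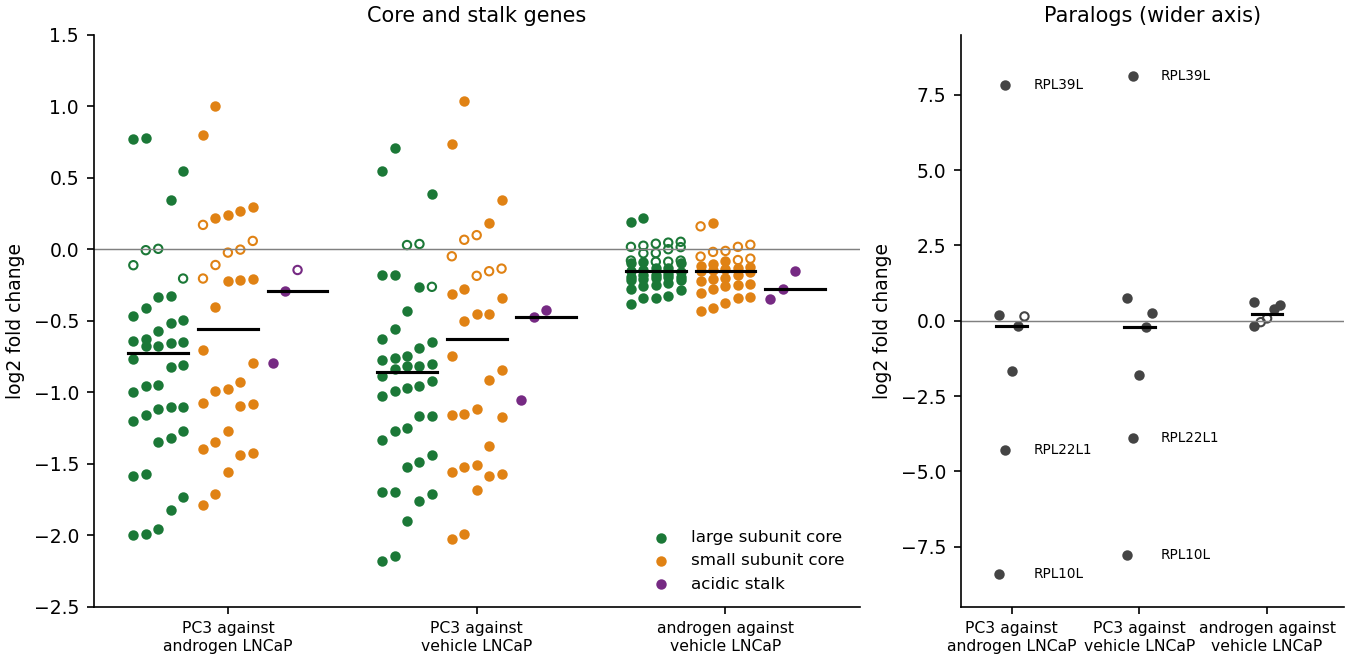
Log2 fold change (y axis) of each gene tested in the 3 comparisons (x axis), for core and stalk genes on the left and for paralogs on a wider axis on the right, with filled points at an edgeR adjusted p under 0.05, open points otherwise and black lines at the medians. Large subunit core genes have medians of -0.72, -0.86 and -0.15 and small subunit core genes -0.55, -0.63 and -0.15 for PC3 against androgen, PC3 against vehicle and androgen against vehicle.

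The paralogs held the largest differences between the lines, and they did not share a direction. RPL22 and its paralog RPL22L1 were in opposite order in PC3 and LNCaP cells. RPL22 (chr1:6185020-6209389, minus strand, GRCh38) encodes a large subunit protein that also binds RNA outside the ribosome, and RPL22L1 (chr3:170864875-170870208, minus strand) encodes a protein that can take its place, and whose RNA is known to be held down by RPL22 in mouse cells. RPL22 was at 460.5, 444 and 443 CPM in PC3, 263, 269.7 and 258 CPM with androgen and 311, 325 and 303 CPM with vehicle. RPL22L1 was at 48.2, 47.9 and 42.0 CPM in PC3, 912, 903 and 921 CPM with androgen and 701, 687 and 686 CPM with vehicle. The 3 groups did not overlap for either gene, and the order of the groups was reversed between them. Against androgen-treated cells, PC3 had a log2 fold change of 0.77 ± 0.061 for RPL22 (edgeR adjusted p = 7.45e-06) and of -4.31 ± 0.091 for RPL22L1 (adjusted p = 1.58e-08), the latter a 19.8-fold lower level.

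Of the reads on the pair, RPL22L1 held 9.48%, 9.73% and 8.66% in PC3 (each with a Wilson 95% interval within 8.17% and 10.3%), 77.6%, 77.0% and 78.2% with androgen and 69.2%, 67.9% and 69.3% with vehicle. The sum of both genes was also higher in LNCaP, at 495 ± 12.1 CPM in PC3, 1175 ± 3.31 CPM with androgen and 1004 ± 13.4 CPM with vehicle (SD, n = 3). Per length of the canonical transcripts the ratio of RPL22L1 to RPL22 was 0.103 to 0.117 in PC3, 3.63 to 3.88 with androgen and 2.29 to 2.45 with vehicle. None of the 74-nt stretches of the RPL22L1 transcript occurred elsewhere in the genome, whereas 30.7% of those of RPL22 did, or 24.4% without matches that span an exon junction.

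RPL10L and RPL39L marked 1 line each. RPL10L (chr14:46651010-46651781, minus strand) is a copy of RPL10 with 1 exon that is best known from the testis. It had 0, 1 and 1 counts in PC3, 259, 209 and 227 with androgen and 136, 141 and 136 with vehicle, so the groups were far apart. The ratio of androgen-treated to PC3 counts, scaled by library, was 410 (95% counting interval 113 to 3395), and that of vehicle-treated to PC3 counts was 267 (73.5 to 2213). Even in LNCaP the level was low, at 6.93 to 11.6 CPM, and RPL10L made up 1.52% ± 0.145 of the reads on RPL10 and RPL10L with androgen.

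RPL39L (chr3:187120948-187180908, minus strand), a copy of RPL39 that is also best known from the testis, had 842, 770 and 635 counts in PC3, 3, 2 and 3 with androgen and 1, 2 and 3 with vehicle. The ratio of PC3 to androgen-treated counts was 238 (95% counting interval 121 to 552), and that of PC3 to vehicle-treated counts was 289 (133 to 790). RPL39L held 76.5%, 76.7% and 71.1% of the reads on the pair in PC3 and at most 0.709% in a LNCaP library. RPL39 itself was at 10.2, 10.2 and 10.2 CPM in PC3 and 21.1, 19.0 and 21.2 CPM with androgen (2.00-fold lower, edgeR adjusted p = 2.33e-05). For RPL39, 93.4% of the 74-nt stretches occur elsewhere in the genome, or 53.6% without those that span an exon junction, so its counts are uncertain.

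**Figure D4:**
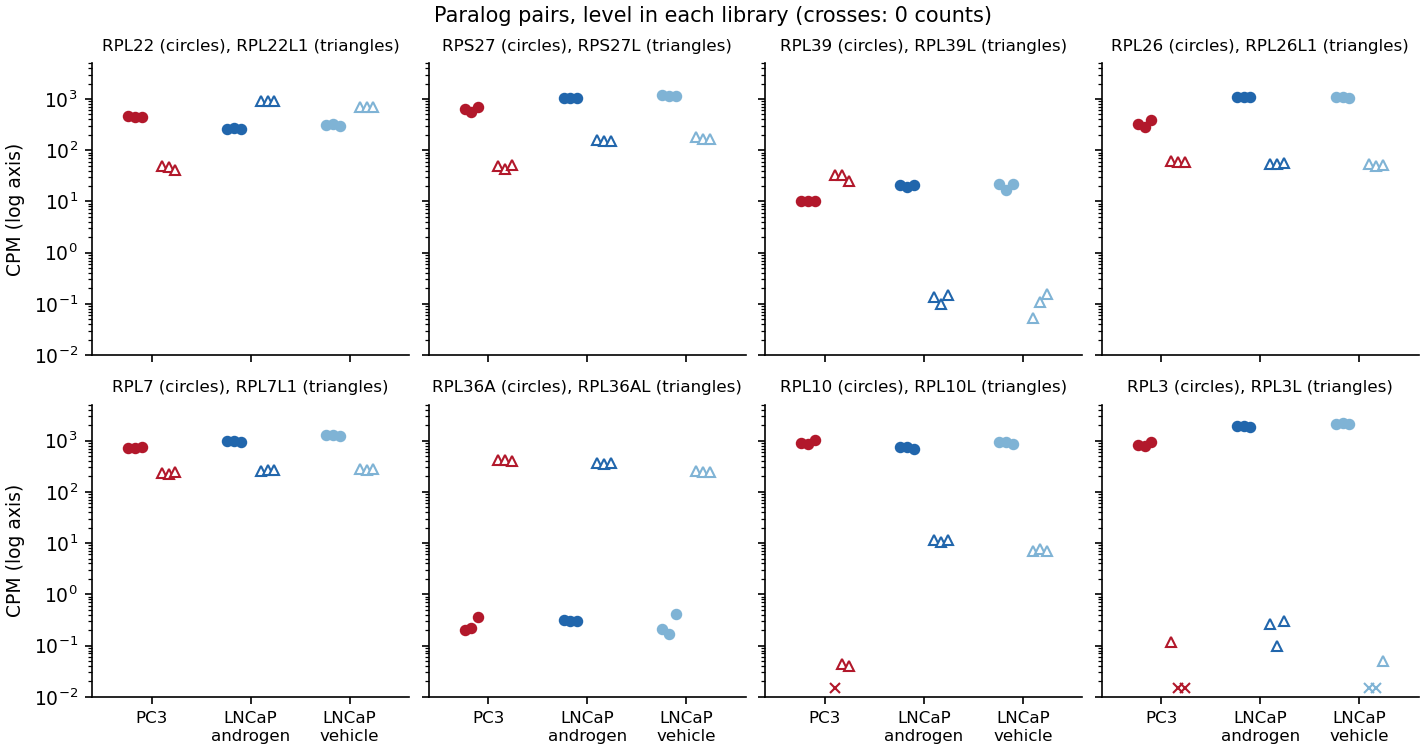
Level in CPM (log y axis) of the 8 core genes (filled circles) and their paralogs (open triangles) in each library of the 3 groups (x axis), with crosses at the foot of the panel for 0 counts. RPL22 lies above RPL22L1 in PC3 and below it in both LNCaP groups, RPL39L is at 25.2 to 33.6 CPM in PC3 and at most 0.153 CPM in LNCaP, and RPL10L is at 6.93 to 11.6 CPM in LNCaP and at most 0.0436 CPM in PC3.

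RPS27L, a copy of RPS27 that is known as a p53 target, was at 48.5, 43.3 and 52.6 CPM in PC3, 159.9, 152 and 149 CPM with androgen and 182, 167 and 167 CPM with vehicle. PC3 lay below both LNCaP groups, with a log2 fold change of -1.67 ± 0.081 against androgen-treated cells (edgeR adjusted p = 4.88e-07). RPS27 was lower as well (log2 fold change -0.70, adjusted p = 0.000124), and RPS27L held 7.05% ± 0.105 of the reads on the pair in PC3 and 12.9% ± 0.292 with androgen. For RPS27, 94.6% of the stretches occur elsewhere, or 31.2% without those that span an exon junction.

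RPL26 and RPL26L1 did not move together between the lines. RPL26 was at 321, 279 and 397 CPM in PC3 and 1117, 1085 and 1112 CPM with androgen, far apart (log2 fold change -1.73, edgeR adjusted p = 3.69e-06). RPL26L1 was at 62.6, 57.9 and 59.5 CPM and 53.8, 53.4 and 55.9 CPM, and its difference did not pass the test (log2 fold change 0.14, adjusted p = 0.059, 0.0469 without PC3 replicate 2 and 0.0461 without PC3 replicate 3). RPL26L1 held 15.5% ± 2.19 of the pair's reads in PC3 and 4.69% ± 0.0930 with androgen.

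RPL7L1, a nucleolar copy of RPL7, was at 229.8, 228 and 244 CPM in PC3 and 259, 265 and 272 CPM with androgen (log2 fold change -0.18, edgeR adjusted p = 0.0167). That call was lost without androgen replicate 3 (adjusted p = 0.0604) and without PC3 replicate 1 (adjusted p = 0.0644). RPL7 was lower in PC3, at 729.6, 718 and 752 CPM as compared to 990.1, 976 and 963 CPM (log2 fold change -0.41, adjusted p = 0.000565). RPL36AL was at 414, 416 and 403 CPM in PC3 and 361, 347 and 364 CPM with androgen (log2 fold change 0.20, adjusted p = 0.0161), a call that was lost without androgen replicate 2 (adjusted p = 0.086) or 3 (adjusted p = 0.065).

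RPL36A and RPL3L did not pass the filter in any comparison. RPL36A had 3 to 9 counts per library. Of its exonic bases, 43.8% lie in the read-through gene RPL36A-HNRNPH2, and how many reads this overlap left uncounted was not measured. RPL3L, a copy of RPL3 that is best known from heart and skeletal muscle, had 3, 0 and 0 counts in PC3, 6, 2 and 6 with androgen and 0, 0 and 1 with vehicle. Its ratio of androgen-treated to PC3 counts was 5.51 (95% counting interval 1.54 to 29.9). RPS10 and RPL17 also share 84.0% and 96.9% of their bases with read-through genes, and FAU shares 17.2% with SYVN1, so their levels are uncertain. RPS10 was at 4.82, 4.19 and 4.44 CPM in PC3 and 9.51, 7.13 and 8.94 CPM with androgen (log2 fold change -0.93, edgeR adjusted p = 0.000598).

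The next comparison stayed within LNCaP and set androgen against vehicle, to ask what the hormone changed in the responsive line. Androgen lowered most ribosomal protein RNAs by a small amount, led by RPS2, RPS19, RPL7, RPS3 and RPLP0, and raised 6, among which were the paralogs RPL10L, RPL36AL and RPL22L1. Of 83 genes tested, 54 were called lower and 6 higher with edgeR's quasi-likelihood test, and 23 were not called. Of all 11697 genes tested, 37.8% were called lower and 37.1% higher. The median log2 fold change of the 83 genes was -0.15, with an interquartile range from -0.23 to -0.04, and that of all genes was -0.01. In this test none of the 83 genes (0) reached a fold change of 2, at an adjusted or an unadjusted p under 0.05, and with the DESeq2 Wald test 0 did (1 without the filter on low counts in edgeR), against 7.49% of all genes lower and 6.54% higher by that rule in edgeR. The replicate numbers were taken to pair the LNCaP libraries, though less surely for numbers 2 and 3. With the replicate number as a block 60 genes were called lower and 6 higher, including all of the 54 and the 6.

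The size of this shift depends on the scaling. TMM factors over all 9 libraries, which scale the CPM, were 0.94 to 0.95 for the androgen-treated and 1.05 for the vehicle-treated libraries. The fit of androgen against vehicle computed its own factors from the LNCaP libraries. With library size alone, the median log2 fold change moved from -0.01 to -0.16 for all genes and from -0.15 to -0.30 for the ribosomal protein genes, of which 74 were then lower and 3 higher. Of all genes, 50.4% were then called lower and 27.2% higher. The distance between both medians was -0.14 under each of the 4 scalings tried. A scaling moves all genes of a comparison by nearly the same amount, so this distance could hardly change and is no check of the shift. When all 9 libraries entered 1 fit, in which the larger spread of the PC3 libraries is shared, 34 genes were called lower and 6 higher. The shares of all genes called in that fit and with the replicate block are not given here. Whether the ribosomal protein genes exceed those shares is therefore not shown.

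**Figure D5:**
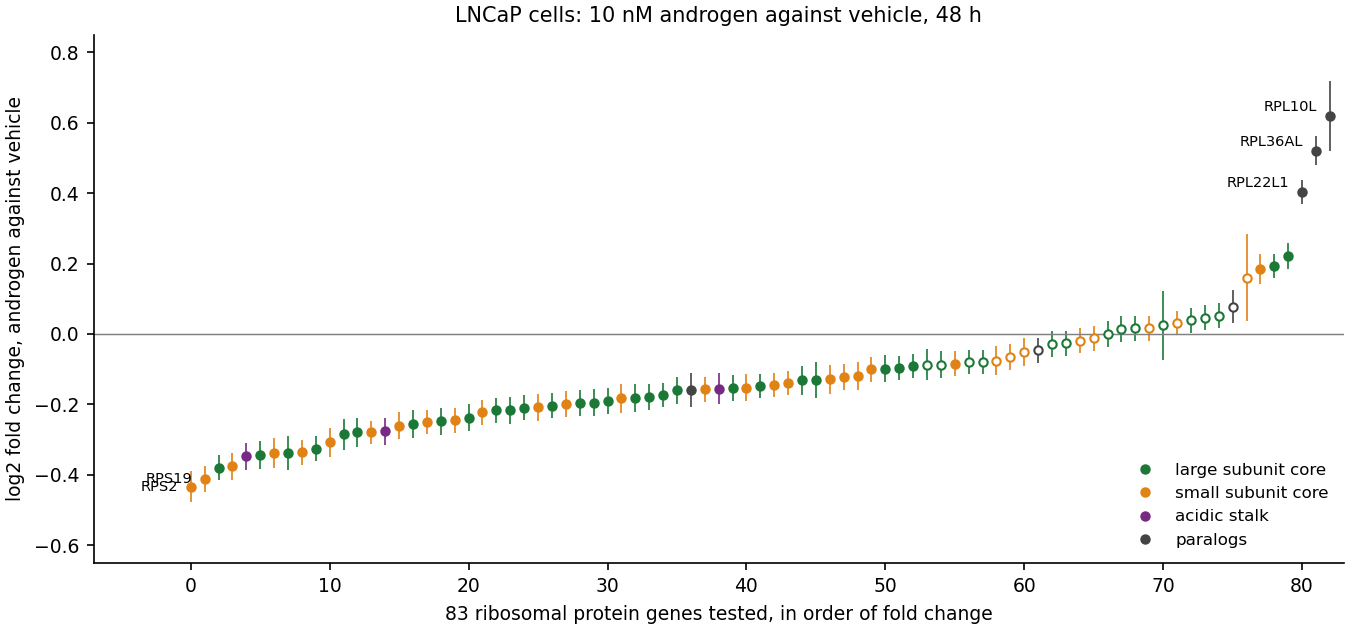
Log2 fold change with its standard error (y axis) of androgen against vehicle in LNCaP cells for the 83 genes tested, in order of fold change (x axis) and coloured by class, with filled points at an edgeR adjusted p under 0.05. The points run from -0.43 for RPS2 to 0.62 for RPL10L, and the 3 highest are paralogs.

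Small subunit core genes were lower with androgen in 23 of 32 cases and higher in 1. RPS2 was at 2145, 2014 and 1992 CPM with androgen and 2847, 2822 and 2657 CPM with vehicle (log2 fold change -0.43 ± 0.044, edgeR adjusted p = 1.13e-06). RPS19 was at 366, 359 and 348 CPM and 472, 484 and 475 CPM (log2 fold change -0.41 ± 0.037, adjusted p = 3.71e-07). RPS3, which also takes part in DNA repair, was at 957, 935 and 891 CPM and 1201, 1226 and 1192 CPM (log2 fold change -0.38, adjusted p = 1.63e-06). The groups did not overlap in any of the 3 genes. RPSA (log2 fold change -0.34, adjusted p = 1.84e-06) and RPS3A (-0.34, adjusted p = 8.39e-06) were lower by similar amounts, and RPS12 by less (-0.20, adjusted p = 0.00034).

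RPS24 and RPS29, which were higher in PC3, were nearly level within LNCaP. RPS24 had a log2 fold change of 0.02 (edgeR adjusted p = 0.679), which turned to -0.14 with library size alone and was then called (adjusted p = 0.00231), and its LNCaP groups overlapped. RPS29 was at 415, 411 and 404 CPM with androgen and 431, 441 and 434 CPM with vehicle (log2 fold change -0.08, adjusted p = 0.044). Leaving out any 1 library other than androgen replicate 1 lost this call, with an adjusted p between 0.072 and 0.132. RPS27A (0.03, adjusted p = 0.426, and -0.12 with an adjusted p of 0.00514 with library size alone) was not called in the main test. RPS4X was not called in the main test (log2 fold change -0.07, adjusted p = 0.135) and was called with the replicate block (adjusted p = 0.036, range over the alternatives 0.000109 to 0.426). RPS18 was called (log2 fold change -0.12, adjusted p = 0.0167), and its adjusted p was 0.0666 without androgen replicate 3, 0.0521 without vehicle replicate 1 and 0.0694 without vehicle replicate 2.

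Large subunit core genes were lower with androgen in 27 of 42 cases and higher in 2, RPL38 and RPL35A. RPL7 was at 990.1, 976 and 963 CPM with androgen and 1277, 1293 and 1249 CPM with vehicle (log2 fold change -0.38 ± 0.035, edgeR adjusted p = 5.15e-07). RPL10 was at 749, 742 and 678 CPM and 927, 949 and 869 CPM (log2 fold change -0.34, adjusted p = 3.45e-05). RPL5 was at 767, 761 and 750.5 CPM and 954, 979 and 926 CPM (log2 fold change -0.33, adjusted p = 3.22e-06). The groups of these 3 genes did not overlap. RPL11, the partner of RPL5 in the 5S particle, was lower by 0.10 (adjusted p = 0.021), a call that was lost without androgen replicate 3 (0.0576), vehicle replicate 1 (0.0561) or vehicle replicate 2 (0.0599).

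RPL7A, RPL23 and RPL41, which were far lower in PC3, were also slightly lower with androgen (log2 fold changes -0.20, -0.17 and -0.19, edgeR adjusted p = 0.000172, 0.000522 and 0.000443). RPL8 was lower with androgen as well (-0.18, adjusted p = 0.00061). RPL34 was not called (log2 fold change 0.04, adjusted p = 0.323), nor was RPL26 (0.02, adjusted p = 0.678) or RPL39 (0.02, adjusted p = 0.827), and with library size alone all 3 turned to values of -0.11 to -0.14, of which RPL34 (adjusted p = 0.00706) and RPL26 (adjusted p = 0.00233) were then called lower. RPL30 was not called in the main test (-0.09, adjusted p = 0.0559) and was called with the replicate block (adjusted p = 0.0142, range over the alternatives 5.22e-05 to 0.305). It was also called without androgen replicate 1 (adjusted p = 0.0236) or vehicle replicate 3 (adjusted p = 0.0392).

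All 3 stalk genes were lower with androgen. RPLP0 was at 2045, 2059 and 1963 CPM with androgen and 2582, 2634 and 2518 CPM with vehicle (log2 fold change -0.35 ± 0.038, edgeR adjusted p = 2.23e-06). RPLP1 (-0.28, adjusted p = 2.44e-05) and RPLP2 (-0.16, adjusted p = 0.00606) were lower by less, and neither overlapped between the groups.

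RPL38, which is known for its role in the translation of Hox messenger RNAs in the mouse embryo, was at 799, 752 and 777 CPM with androgen and 676, 661 and 662 CPM with vehicle (log2 fold change 0.22 ± 0.038, edgeR adjusted p = 0.000141). RPL35A was at 1343, 1322 and 1329.5 CPM and 1171, 1169 and 1157 CPM (log2 fold change 0.19, adjusted p = 0.000174). FAU was at 412, 385 and 386 CPM and 356, 344 and 342 CPM (log2 fold change 0.18, adjusted p = 0.00128). Each of the 3 rose without overlap, but with library size alone the differences shrank to 0.07, 0.04 and 0.03 and none was called.

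Among the paralogs, RPL10L, RPL36AL and RPL22L1 rose with androgen under every scaling tried. RPL36AL was at 361, 347 and 364 CPM with androgen and 261, 245 and 242 CPM with vehicle (log2 fold change 0.52 ± 0.041, edgeR adjusted p = 9.75e-08). RPL22L1 rose by 0.40 ± 0.034 (adjusted p = 1.92e-07), while RPL22 fell by 0.25 (adjusted p = 7.81e-05). RPL10L rose by 0.62 ± 0.10 (adjusted p = 8.77e-05), from 7.15, 7.76 and 6.93 CPM with vehicle to 11.6, 10.3 and 11.5 CPM with androgen, and its core gene RPL10 was lower. In these 3 genes every androgen-treated library lay above every vehicle-treated one.

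RPS27L was lower with androgen (log2 fold change -0.16, edgeR adjusted p = 0.00917), as was RPS27 (-0.16, adjusted p = 0.00152), and the RPS27L call was lost without vehicle replicate 1 (adjusted p = 0.0557). RPL7L1 (-0.05, adjusted p = 0.262, and -0.20 with an adjusted p of 0.000258 with library size alone) and RPL26L1 (0.08, adjusted p = 0.147, and -0.07 with library size alone) were not called. RPS10 was not called (0.16, adjusted p = 0.253) and was called without androgen replicate 2 (adjusted p = 0.0441). RPL39L was too low to be tested. RPL3L, at 14 counts in all with androgen and 1 with vehicle, had a ratio of 12.8 (95% counting interval 1.94 to 540).

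PC3 and vehicle-treated LNCaP cells were compared to see the lines apart without added androgen. The PC3 libraries are those of the first comparison, so both share their deviations. Of 84 genes tested, 65 were lower in PC3 and 10 higher with edgeR's quasi-likelihood test, and 9 were not called, as compared to 40.8% lower and 42.6% higher of all 12686 genes. With a fold change of at least 2, 33 were lower and 2 higher, against 21% and 22.2% of all genes. The median log2 fold change was -0.82, with an interquartile range from -1.39 to -0.25, and 0.03 over all genes. Without PC3 replicate 3 the median was -0.92 and 1 gene was at least 2-fold higher.

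The genes at both ends were largely those named above. Against vehicle, RPL7A had a log2 fold change of -2.18, RPL23 of -2.15 and RPS3A of -2.03 (edgeR adjusted p = 2.37e-07, 7.41e-08 and 4.38e-07). RPS2 was lower by 1.51 (adjusted p = 9.32e-07), and RPLP1 by 1.06 (adjusted p = 8.09e-06). RPLP0, not called against androgen-treated cells, was lower here (-0.47, adjusted p = 0.000786), though the difference between these results was not tested. RPS24 (1.04, adjusted p = 1.37e-05), RPS29 (0.74, adjusted p = 3.15e-05), RPL30 (0.71, adjusted p = 7.43e-05) and RPL22 (0.54, adjusted p = 5.73e-05) were higher in PC3.

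Several genes that were slightly higher in PC3 than in androgen-treated cells were not called higher against vehicle-treated cells, and these were lower with androgen within LNCaP. The comparisons share libraries, so the direction within LNCaP largely follows from the other fold changes and is no separate result. The difference between the calls was not tested. RPSA was at 1079, 1022 and 1143 CPM in PC3 and 1122, 1167 and 1122 CPM with vehicle (log2 fold change -0.05, edgeR adjusted p = 0.514). RPL10 was at 887, 851 and 1020.5 CPM and 927, 949 and 869 CPM (log2 fold change 0.03, adjusted p = 0.75, and -0.05 with library size alone). RPS19 was at 412, 388 and 466 CPM and 472, 484 and 475 CPM (log2 fold change -0.15, adjusted p = 0.0851, and 0.00146 without PC3 replicate 3). RPSA and RPL10 overlapped between the groups, and RPS19 did not. RPL38 (0.04, adjusted p = 0.686) and RPS3 (-0.19, adjusted p = 0.0888) were not called, and RPS3 was called without PC3 replicate 3 (adjusted p = 0.000462). FAU was called with an adjusted p of 0.0487, which was lost in 5 of the 6 fits without 1 library (0.0796 to 0.16) and in each other alternative but unstranded counts.

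Among the paralogs, RPL22L1 was 14.8-fold lower than with vehicle (log2 fold change -3.88 ± 0.086, edgeR adjusted p = 1.75e-08). RPL36AL was higher, at 414, 416 and 403 CPM in PC3 and 261, 245 and 242 CPM with vehicle (log2 fold change 0.74 ± 0.064, adjusted p = 1.3e-05). RPL26L1 was slightly higher (0.24, adjusted p = 0.00757) and RPL7L1 slightly lower (-0.21, adjusted p = 0.00948). RPS27L was lower by 1.81 (adjusted p = 3.82e-07). PC3 and vehicle-treated libraries did not overlap in any of these genes.

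The genes around the ribosome did not follow the ribosomal proteins as 1 block. Of 20 translation factors and other genes known for TOP messenger RNAs, 11 were lower and 5 higher in PC3 than with androgen (median log2 fold change -0.36), and 14 were lower and 2 higher with androgen than with vehicle (median -0.24). As given above, 41.1% of all genes were lower and 42.9% higher in the first comparison, and 37.8% and 37.1% in the second. EEF2, the elongation factor that moves the ribosome along, was lower in PC3 (log2 fold change -1.48, edgeR adjusted p = 1.32e-05), and EIF3H, a subunit of an initiation factor, was higher (0.76, adjusted p = 2e-05). HNRNPA1, an RNA-binding protein (-1.25, adjusted p = 5.35e-10), and NAP1L1, a histone chaperone (-1.22, adjusted p = 3.58e-11), which are no translation factors, fell most with androgen and were the only 2 of the 20 that fell at least 2-fold.

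Ribosome assembly factors lay on the other side of 0 between the lines. Of 56 tested, 36 were higher in PC3 than with androgen and 8 lower (median log2 fold change 0.42), with NMD3, the export adaptor of the large subunit, at 1.96 (edgeR adjusted p = 5.24e-07) and NOC3L at 1.80 (adjusted p = 9.86e-07). Within LNCaP 15 of 57 were higher with androgen and 24 lower (median -0.06), with FBL, the methyltransferase of ribosomal RNA, at -0.84 (adjusted p = 1.96e-09) and SBDS, which acts late in large subunit maturation, at 0.70 (adjusted p = 4.37e-09). Of 21 genes of RNA polymerase I and III and their factors, 14 were higher in PC3 than with androgen and 4 lower (median 0.79), and 7 were higher and 10 lower with androgen than with vehicle (median -0.07). Between PC3 and androgen 64.3% and 66.7% of the genes of these lists were higher and 14.3% and 19.0% lower, against 42.9% and 41.1% of all genes. Within LNCaP 26.3% and 33.3% of the genes of these lists were higher and 42.1% and 47.6% lower, against 37.1% and 37.8% of all genes.

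Mitochondrial ribosomal proteins, which build the separate ribosome of the mitochondrion, were more evenly split. Of 77 tested, 39 (50.6%) were lower and 24 (31.2%) higher in PC3 than with androgen (median log2 fold change -0.19), against 41.1% and 42.9% of all genes. With androgen against vehicle 20 (26%) were lower and 24 (31.2%) higher (median 0.04), against 37.8% and 37.1% of all genes. MRPS6 was higher in PC3 (2.81, edgeR adjusted p = 6.54e-08) and MRPL54 lower (-1.71, adjusted p = 1.02e-06). Of 13 known controls of ribosomal protein transcripts, 5 (38.5%) were higher and 6 (46.2%) lower in PC3 than with androgen. With androgen against vehicle 4 (30.8%) were higher and 6 (46.2%) lower. These are near the shares of all genes, 42.9% higher and 41.1% lower in the first comparison and 37.1% and 37.8% in the second. MTOR, the kinase that acts on TOP messenger RNAs, was lower in PC3 than with androgen (-1.72, adjusted p = 1.03e-07) and rose with androgen in LNCaP (1.94, adjusted p = 1.06e-12). The differences between these lists and the ribosomal proteins were not tested.

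Because reads that STAR places at several sites are not counted and ribosomal protein genes have many processed copies, the results were set beside how much of each transcript is unique. Of 86 genes, 40 had under 10% of their 74-nt stretches elsewhere in the genome, 29 had 10% to 50% and 17 had more. Such a match does not mean that the reads went uncounted, since many of these stretches span an exon junction. Among the 39 most unique genes with a test of PC3 against androgen, 27 were lower and 6 higher, with a median log2 fold change of -0.64. In the middle group 20 of 28 were lower and 5 higher (median -0.74), and in the least unique group 13 of 17 were lower and 1 higher (median -0.70). Within LNCaP the medians were -0.11, -0.15 and -0.20 in the same order. RPL23, RPL34 and RPL22L1 were among the most unique genes. RPL7A (56.0% of stretches elsewhere), RPS3A (93.2%), RPS2 (61.5%), RPL7 (63.5%) and RPLP0 (50.9%), also named among the largest falls, were in the least unique group, so their counts are less certain. RPL21, with 100% of its stretches elsewhere (37.3% without those that span a junction), was not called between PC3 and androgen-treated cells.

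Levels between genes were compared per length. With the length of all annotated exons, the 5 highest mean CPM per kb over the 9 libraries included those of RPS12 (1118), RPS27 (916), RPL8 (916) and RPS18 (831), and the 5 lowest were those of RPL10L (7.97), RPL39 (7.95), RPS10 (2.97), RPL36A (0.0692) and RPL3L (0.0339). The top of this order depended on the length used. With the canonical transcript 3 of the 5 highest were shared, and with the number of stretches that occur once 1 of 5 was shared, and RPS24 then ranked among the first 5 in both. Of the 5 lowest, 4 and 3 were shared. These means pool the lines, and the order at the low end differed between them: RPL39L was at most 0.153 CPM in LNCaP and RPL10L at most 0.0436 CPM in PC3.

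Genes that met the rule for a pyrimidine-rich start and genes that did not were both mostly lower in PC3. Of 47 tested genes with it, 33 were lower and 7 higher in PC3 than with androgen (median log2 fold change -0.66). Of 21 genes with a listed start but without it, 16 were lower and 2 higher (median -0.95). Between androgen and vehicle the medians were -0.14 and -0.10, with 30 of 47 and 12 of 21 genes lower. The rule reads from the exact listed base. RPL4, RPL10A, RPL19 and RPL27 did not meet it but have tracts of C and T close to a listed start. The groups therefore may not separate genes with and without a TOP tract, and no test was made of this contrast. RPL22L1, the only paralog with the run, was one of the 4 genes with it that rose with androgen.

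The 86 genes lie on 21 chromosomes, and 6 chromosomes carry at least 5 of them. On chromosome 19, which carries 12, the median log2 fold change between PC3 and androgen-treated LNCaP was -0.34, as compared to -0.06 over 895 genes tested there. On chromosome 17 the 6 genes had a median of -1.503, with RPL23, RPL26 and RPL27 among them, and all 732 genes tested -0.11. On chromosome 6 the values were -0.95 for 5 genes and 0.08 for 616, and on chromosome 3 they were -0.50 for 9 genes and 0.24 for 701. On chromosome 1 they were -0.57 for 5 genes and -0.11 for 1217, and on chromosome 11 they were -0.26 for 6 genes and 0.19 for 690. On each of these chromosomes the ribosomal protein genes thus had a lower median than all genes tested there, and RPL22 on chromosome 1, RPL39L and RPSA on chromosome 3 and RPS19 on chromosome 19 were called higher in PC3.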

How the data were processed

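RNA was poly(A)-selected from 3 libraries each of PC3, androgen-treated LNCaP and vehicle-treated LNCaP cells, and 74-nt single-end reads were sequenced. The authors trimmed reads with cutadapt, aligned them with STAR, removed duplicates with UMI-tools and deposited whole-number counts per gene. The submitters' processing notes name cutadapt 4.1, STAR 2.7.7a and UMI-tools 1.1.2. The table equalled the forward-strand STAR counts in all 253944 values, and STAR counts no read that fits several sites. From these counts, genes above 3 CPM in at least 3 libraries of a comparison were tested with TMM factors and the quasi-likelihood test of edgeR 4.0.16 (R 4.3.3), with Benjamini-Hochberg adjustment over all genes tested, after tests on simulated data. Each standard error (SE) is the absolute log2 fold change divided by the square root of that test's F statistic, and is no separate estimate. The study's batches are not named in the sources used here, so no batch term was fitted. DESeq2 1.42.0, other scalings, filters, counting without strand, 1 fit of all 9 libraries and fits without each library were alternatives.

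Named were 25 members by role, the 5 largest called rises and falls in each comparison, and the 5 highest and lowest levels per length, and others were chosen after their values were seen. A result on 1 member is not reported here. Of other lists, the 3 largest changes could be named. Members and lists were chosen with earlier results of these data known. Replicate numbers were checked as pairs through the correlation of deviations from the group means over 12843 genes. Same-numbered androgen-treated and vehicle-treated libraries gave 0.53, 0.31 and 0.20 and were taken as paired. Androgen replicate 3 correlated more with vehicle replicate 2 (0.23), and androgen replicate 2 with vehicle replicate 3 gave 0.13, so the pairing of numbers 2 and 3 is less sure. Gene positions and exon lengths came from GENCODE 44 (GRCh38) and start windows from RefSeq (GRCh38.p14).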

Additional observations from a re-analysis of the deposited data

Results flagged for a closer look

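Reads on the strand opposite to the gene, which no comparison used, made up 85.7% of the reads on RPL3L and 7.02% of those on RPL36A over both strands, as compared to a median of 0.368% over the ribosomal protein genes. Both genes had few reads on their own strand and entered no test.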

How the results depend on the processing

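Most results kept their direction and their side of the threshold: 212 of the summary values stayed in place and 16 moved, and of the single-gene values 1647 kept their direction and side of the threshold, 51 lost a call, 25 gained one in the same direction, 17 changed sign, 4 of which were then called, and 2 others moved. Between PC3 and androgen, 1 gene in place of 2 was at least 2-fold higher with the DESeq2 Wald test, DESeq2 size factors, TMM without the ribosomal protein genes and the replicate block. Without 1 library, 7 to 14 genes were higher there, 56 to 65 lower and 1 to 2 at least 2-fold higher, and the median ran from -0.79 to -0.60. With library size alone, androgen against vehicle gave 3 higher genes and a median of -0.30, PC3 against vehicle gave 1 gene at least 2-fold higher, and these signs turned: within LNCaP RPL26 -0.14, RPL26L1 -0.0748, RPL34 -0.11, RPL39 -0.13, RPS24 -0.14 and RPS27A -0.12, for PC3 against vehicle RPL10 -0.0540 and RPL38 -0.0467, and for PC3 against androgen FAU 0.0651. Within LNCaP the fit of all 9 libraries called 34 genes lower, and without the filter on low counts 1 gene was at least 2-fold higher. Without 1 library, PC3 against vehicle gave 1 to 2 genes at least 2-fold higher and a median of -0.92 to -0.77. Genes near 0 changed sign without 1 library, over ranges of -0.0907 to 0.0372 for FAU (PC3 against androgen), -7.46e-07 to 0.0319 for RPL26 and -0.0904 to 0.0882 for RPL39 (within LNCaP), and -0.0616 to 0.0715 for RPL10 and -0.0540 to 0.0994 for RPL38 (PC3 against vehicle). The cause was not tested.

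With the replicate block, 9 genes were higher and 56 lower in PC3 than with androgen, 9 and 62 than with vehicle, and 6 and 60 with androgen than with vehicle. The shares of all genes called with that block are not given here. PC3 and LNCaP libraries share only a number, as deviations of same-numbered libraries correlated at -0.01, 0.01 and -0.09 against androgen and 0.03, -0.09 and -0.02 against vehicle. The 3 libraries per group and uncounted multimapping reads limit small differences.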
